A study of Mus musculus with 9 samples.

Results

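A set of 10 long noncoding RNAs was followed across TAMH cells given paraquat, diquat or medium alone: Gas5, Snhg1, Snhg3, Snhg5, Snhg6, Snhg8, Snhg12, Snhg15, Neat1 and Malat1. A member was taken from the deposited table where the platform annotation gave its symbol, and no other, to a feature, and the brightest feature over the 9 arrays was kept. This left 8 of the 10 genes, among 22180 genes tested. Gas5 and Snhg8 had only a feature annotated to a second gene as well. The Gas5 feature is described apart from the members below, and Snhg8 was not analysed here.

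TAMH is a mouse hepatocyte line established from a transgenic animal that carried transforming growth factor alpha. Cells of all groups were grown with dexamethasone, nicotinamide, gentamicin, insulin, transferrin and selenium. Paraquat was given at 126 µM and diquat at 18 µM, control cells received medium alone, and all were harvested at 9 h, with 3 arrays per group. Paraquat and diquat are bipyridylium herbicides that take up an electron inside cells and pass it to oxygen as superoxide. The doses of the compounds differ, so a difference between them is not one at a matched dose.

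Small nucleolar RNAs (snoRNAs) guide the chemical modification and processing of ribosomal RNA. Most mammalian snoRNAs are cut out of the introns of a host transcript, and in the Snhg genes and Gas5 the spliced host RNA codes for no long protein. Several spliced host RNAs are short-lived because ribosomes meet an early stop codon and nonsense-mediated decay removes them, so that in mammalian cells their level can depend on translation as well as on transcription. Neat1 is the scaffold RNA of paraspeckles, nuclear bodies that grow under several kinds of stress. Malat1 is an abundant RNA of nuclear speckles, where splicing factors are stored.

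The start regions of Snhg15, Snhg1, Snhg5, Snhg12 and Gas5 are shown because the results below turn on host genes, of which Snhg15, Snhg1 and Snhg5 passed the test and Snhg12 did not, and because Gas5 shares a motif with Snhg15. Each stretch covers 100 bases before to 30 bases after an annotated start, in RefSeq of mouse build GRCm38.p6, and capitals mark every match to a searched motif.
Snhg15 (chr11:6528731-6528860, minus strand): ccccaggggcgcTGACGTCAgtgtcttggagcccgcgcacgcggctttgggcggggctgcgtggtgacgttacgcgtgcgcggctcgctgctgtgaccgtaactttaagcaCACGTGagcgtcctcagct
Snhg1 (chr19:8723387-8723516, plus strand): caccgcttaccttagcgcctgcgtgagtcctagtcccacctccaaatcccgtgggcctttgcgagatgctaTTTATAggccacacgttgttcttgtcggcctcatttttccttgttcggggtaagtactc
Snhg5 (chr9:88522868-88522997, minus strand): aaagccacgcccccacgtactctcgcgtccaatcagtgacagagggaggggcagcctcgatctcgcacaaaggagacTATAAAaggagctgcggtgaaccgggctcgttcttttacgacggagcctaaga
Snhg12 (chr4:132308578-132308707, plus strand): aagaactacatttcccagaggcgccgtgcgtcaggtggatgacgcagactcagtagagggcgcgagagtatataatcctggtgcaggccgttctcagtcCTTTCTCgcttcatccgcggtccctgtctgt
Gas5, the downstream of its 2 annotated starts (chr1:161035066-161035195, plus strand): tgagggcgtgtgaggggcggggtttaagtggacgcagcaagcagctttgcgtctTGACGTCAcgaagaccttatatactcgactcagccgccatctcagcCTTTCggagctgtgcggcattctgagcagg

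Motifs were searched in windows of 250 bases before to 50 bases after the start. Of the 10 genes, 8 had a window and Gas5 had 2. Snhg6 and Neat1 had none, so the motif results do not cover Snhg6, which passed the test below. The cyclic AMP response element TGACGTCA, a site of CREB and ATF family factors, was present in Snhg15, first base at -88, and in Gas5, first base at -46, against 1.79% of all 32851 windows. The E-box CACGTG was found in Snhg15 at 12, counted from the first base of the gene as 1, and 7.15% of all windows held one. The TATA box letters TATAAA, on either strand, were present in 4 of the 8 genes, against 13.6% of windows. The match lay before the start in Snhg1, Snhg5 and Snhg8, first base at -29, -23 and -30. In Snhg3 it lay after the annotated start, at 23, which is not the place of a TATA box for that start. A 5′ terminal oligopyrimidine (TOP) tract, the mark of transcripts whose translation follows growth signals, was sought on the gene strand as a C followed by at least 4 pyrimidines, beginning within 5 bases of the start. It was found in 4 of the 8 genes, Gas5, Snhg3, Snhg8 and Snhg12, against 18.3% of windows, and was not found at that place in Snhg1, Snhg5, Snhg15 or Malat1. These results depend on the annotated start. The Snhg5 stretch above holds a C followed by 4 pyrimidines farther downstream, outside the 5 bases searched. The antioxidant response element core TGACNNNGC was matched in Snhg8 alone among the 8 (12.4% of windows), and the ATF4 response element core TGATGNAA in 0 of the 8 (3.97% of windows). Both strands were searched for all but the tract, the matches to different motifs did not overlap, and a match describes letters, not binding.

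Values are log2 RMA values, which can be compared between arrays for 1 feature. Levels of different features rest on different probes, so the marker levels here only place a signal in the upper or lower part of the table. All 10 measured hepatocyte markers of 12 listed lay in its upper part in control cells, with albumin (Alb) at 12.73. Their mean level on an array was lower in treated cells, at 10.06 to 10.23 with paraquat and 10.15 to 10.16 with diquat, against 10.37 to 10.41 in controls, and 4 of the 10 passed as lower with each compound. Of these, Ttr, the fibrinogen chain Fga and Cps1, a urea cycle enzyme, passed with both. Fgb passed with paraquat only, and Hnf4a with diquat only, at an adjusted p that rounds to 0.05 in limma. The fall was not shared by all markers. Alb differed by -0.01 with both compounds. Krt8 and Krt18 were at 0.03 and 0.07 with paraquat and at 0.04 and 0.10 with diquat. Apoa1 and Apoa2 were lower without passing, at -0.22 and -0.10 with paraquat and -0.16 and -0.21 with diquat. Over all genes 2.24% passed as lower with paraquat and 2.89% with diquat. Of other liver cell types, the 4 endothelial markers lay between 5.31 and 6.28 in controls. The 5 leukocyte and Kupffer cell markers lay between 5.38 (the pan-leukocyte marker Ptprc) and 7.62 (Cd68), 2 of them above the median gene level. Of these 5 markers, 0 passed with paraquat and 1 with diquat, the macrophage marker Cd68 at a log2 difference of 0.40. The other 4 had diquat differences of -0.21 (Lyz2) to 0.02 (Adgre1). With paraquat Cd68 was at 0.35 (adjusted p = 0.0732 in limma), and the other 4 were between -0.09 (Ptprc) and 0.05 (Clec4f). The Cd68 call was lost without control replicate 2 or 3 or diquat replicate 2 or 3 (adjusted p = 0.0657, 0.0645, 0.064 and 0.103 in limma). In controls the cholangiocyte markers Sox9, Krt7, Krt19 and Epcam stood at 10.20, 8.96, 8.31 and 7.66. The stellate cell and fibroblast markers Dcn, Col1a1, Acta2, Col1a2 and Pdgfrb stood at 11.07, 9.18, 7.44, 6.45 and 5.88. Of these 5, 4 lay above the median gene level. Mean levels of the 4 cholangiocyte markers were 8.83 to 8.84 with paraquat and 8.78 to 8.79 with diquat, against 8.76 to 8.81 in controls, and Sox9 alone of the 4 rose with both compounds (log2 differences 0.39 and 0.45), while Krt7 and Krt19 fell with diquat by 0.29 and 0.16. The Krt19 call was lost without any 1 control array or diquat replicate 2 or 3 (adjusted p between 0.07 and 0.132 in limma). In bulk RNA, fewer cells of a type and less RNA per cell cannot be told apart, and the part of these markers in the results below was not tested. Diquat replicate 3 lay farthest from its group mates (root-mean-square difference 0.134, against 0.0714 to 0.115 for the other 8 arrays).

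Diquat raised 4 of the 8 long noncoding RNAs, all of them snoRNA hosts: Snhg15, Snhg6, Snhg1 and Snhg5. Their changes lay between 1.22-fold and 1.46-fold. The other host genes Snhg12 and Snhg3, and the nuclear body RNAs Neat1 and Malat1, did not pass. Over all genes 7.02% were called with diquat, 4.13% as higher and 2.89% as lower (917 higher and 641 lower as deposited, 1073 and 311 with arrays centred on their medians, 840 and 1019 after quantile normalization). A gene was called at an adjusted p under 0.05 in limma (Benjamini-Hochberg, all 22180 genes). For the same 4 genes every diquat array lay above every control array, as it did for 10.1% of all genes.

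Paraquat raised the same 4 genes, by 1.20-fold to 1.29-fold, and no member fell. Over all genes 4.57% were called with paraquat, 2.33% as higher and 2.24% as lower. Every paraquat array lay above every control array in 6 of the 8 members, all hosts, and in 9.05% of all genes. The median log2 difference of the 6 measured hosts was 0.28 with paraquat and 0.31 with diquat, beside -0.00 and -0.02 over all genes. Both treatments were set against the same 3 control arrays, so the 2 sets of values are not independent of each other. The paraquat calls were less stable than their sizes: leaving out control replicate 2, paraquat replicate 2 or paraquat replicate 3 left 1 call, Snhg6, and leaving out control replicate 1 left 2, Snhg6 and Snhg1, while the log2 differences of the 4 genes stayed between 0.21 and 0.42 in every fit without 1 array.

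**Figure D1:**
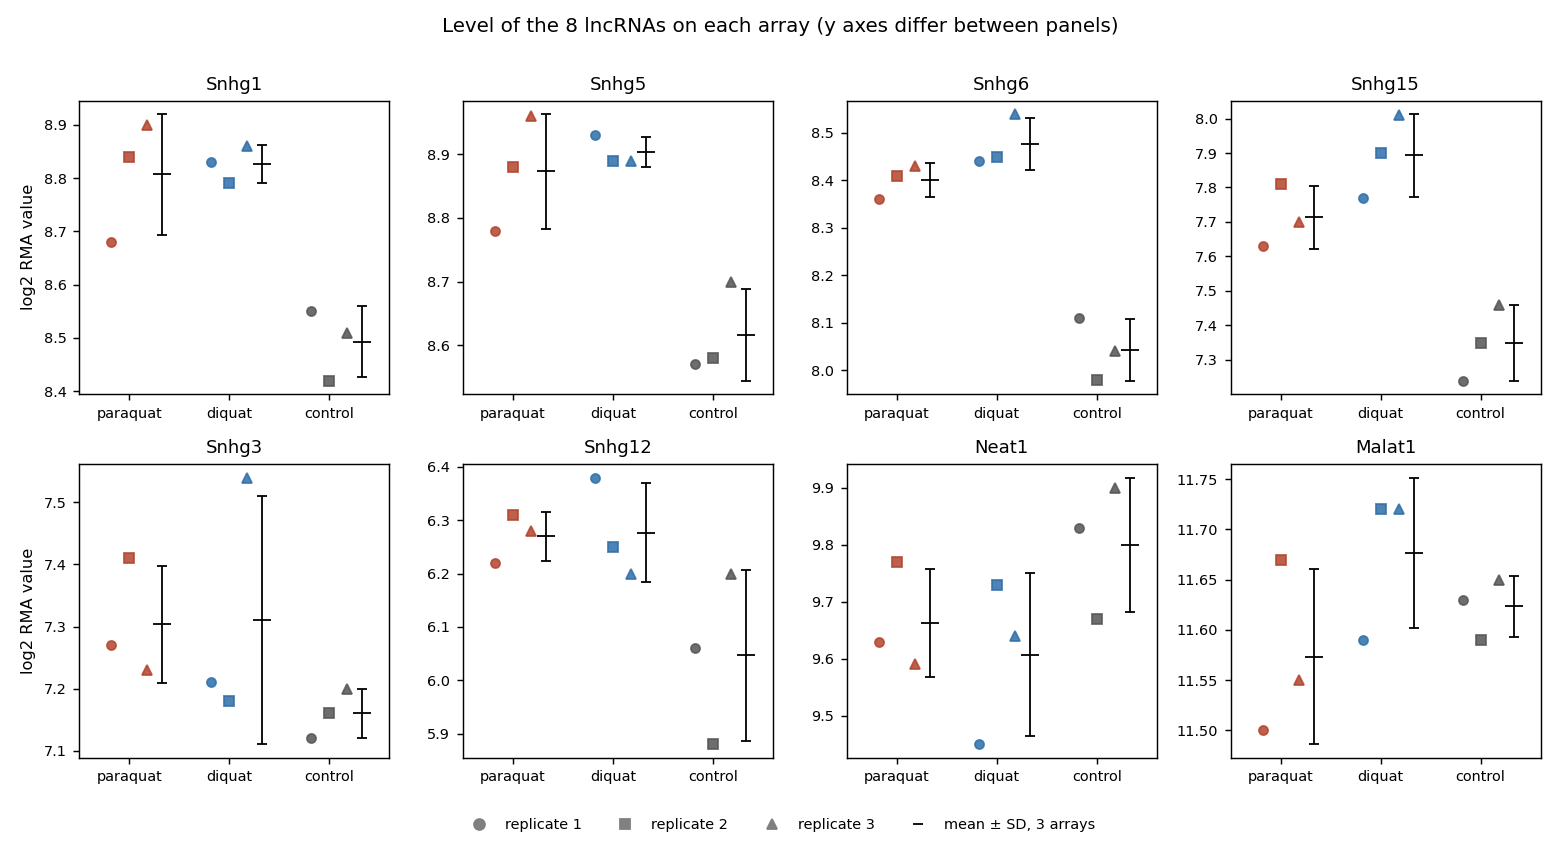
Log2 RMA value (y axis, own range in each panel) of the 8 long noncoding RNAs on each of the 9 arrays, by group on the x axis; symbols are replicates and bars are the mean ± SD of 3 arrays. In the top row, Snhg1, Snhg5, Snhg6 and Snhg15, every paraquat and diquat array lies above every control array, while in the bottom row the diquat arrays overlap the controls.

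Snhg6 gave the smallest p-value of the 8 in both comparisons. It hosts the box C/D snoRNA Snord87. Its level was 8.36, 8.41 and 8.43 on the paraquat arrays, 8.44, 8.45 and 8.54 on the diquat arrays and 8.11, 7.98 and 8.04 on the control arrays. The 6 treated arrays were all above the 3 controls, and the 3 diquat arrays were all above the 3 paraquat arrays. The log2 difference was 0.43 ± 0.05 with diquat (SE; adjusted p = 0.000393 in limma) and 0.36 ± 0.05 with paraquat (adjusted p = 0.00163 in limma). By p-value it ranked 131 and 181 among the 22180 genes. Both calls held in all 15 alternative fits of each comparison, with adjusted p up to 0.00522 for diquat and 0.0126 for paraquat.

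Snhg15 had the largest change. In human cells its transcript is known as short-lived and stress-inducible. It stood at 7.63, 7.81 and 7.70 on the paraquat arrays, 7.77, 7.90 and 8.01 on the diquat arrays and 7.24, 7.35 and 7.46 on the control arrays. No treated array reached down to a control, and paraquat and diquat arrays overlapped. Diquat raised it 1.46-fold, a log2 difference of 0.54 ± 0.07 (SE; adjusted p = 0.00196 in limma). Paraquat raised it 1.29-fold, a log2 difference of 0.36 ± 0.07 (SE; adjusted p = 0.0208 in limma). The paraquat call did not survive the loss of control replicate 1 or 2 (adjusted p = 0.0929 and 0.0812 in limma) or that of paraquat replicate 2 or 3 (0.0962 and 0.0757).

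Snhg1, the host of a run of box C/D snoRNAs, stood at 8.68, 8.84 and 8.90 on the paraquat arrays, 8.83, 8.79 and 8.86 on the diquat arrays and 8.55, 8.42 and 8.51 on the control arrays. The diquat arrays lay within 0.07 of each other, and paraquat replicate 1 was the lowest treated array. The log2 difference was 0.33 ± 0.06 with diquat (SE; adjusted p = 0.00767 in limma) and 0.31 ± 0.06 with paraquat (adjusted p = 0.0129 in limma). The paraquat call fell short once control replicate 2 (adjusted p = 0.0648 in limma), paraquat replicate 2 (0.0634) or paraquat replicate 3 (0.0566) was left out.

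Snhg5, the host of U50-type snoRNAs, stood at 8.78, 8.88 and 8.96 on the paraquat arrays, 8.93, 8.89 and 8.89 on the diquat arrays and 8.57, 8.58 and 8.70 on the control arrays. Here too paraquat replicate 1 was the treated array nearest to the controls, 0.08 above control replicate 3. Diquat raised it by 0.29 ± 0.05 on the log2 scale (SE; adjusted p = 0.00989 in limma) and paraquat by 0.26 ± 0.05 (adjusted p = 0.0206 in limma). It was the least secure of the 4 calls. With diquat it was lost without control replicate 2 (adjusted p = 0.0507 in limma). With paraquat it did not survive the loss of control replicate 1 or 2 (0.0963 and 0.0953) or of paraquat replicate 2 or 3 (0.0824 and 0.0835), nor a fit of the 6 arrays compared alone (0.0544).

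Snhg12 and Snhg3 lie close to each other on chromosome 4, and neither passed. Snhg12, which hosts 3 H/ACA snoRNAs and a box C/D snoRNA, was at 6.22, 6.31 and 6.28 on the paraquat arrays, 6.38, 6.25 and 6.20 on the diquat arrays and 6.06, 5.88 and 6.20 on the control arrays. Its control arrays spread over 0.32, near the median gene level of 6.42. The log2 difference was 0.23 with diquat (95% interval 0.06 to 0.40; adjusted p = 0.111 in limma) and 0.22 with paraquat (0.05 to 0.39; adjusted p = 0.167 in limma). Diquat passed without control replicate 3 (log2 difference 0.31, adjusted p = 0.0444 in limma) and with array weights (0.29, adjusted p = 0.0492). Without control replicate 2 the difference was 0.14 with paraquat (adjusted p = 0.444 in limma) and 0.15 with diquat (0.321).

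Snhg3 is the host of the U17 snoRNAs Snora73a and Snora73b, which take part in cleavage of the ribosomal RNA precursor in Xenopus. It stood at 7.27, 7.41 and 7.23 on the paraquat arrays, 7.21, 7.18 and 7.54 on the diquat arrays and 7.12, 7.16 and 7.20 on the control arrays. The log2 difference with diquat was 0.15 (95% interval -0.04 to 0.34; adjusted p = 0.361 in limma) and with paraquat 0.14 (-0.05 to 0.34; adjusted p = 0.538 in limma). Diquat replicate 3 alone set the diquat value, which was 0.04 without that array, and the paraquat value was 0.09 without paraquat replicate 2.

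**Figure D2:**
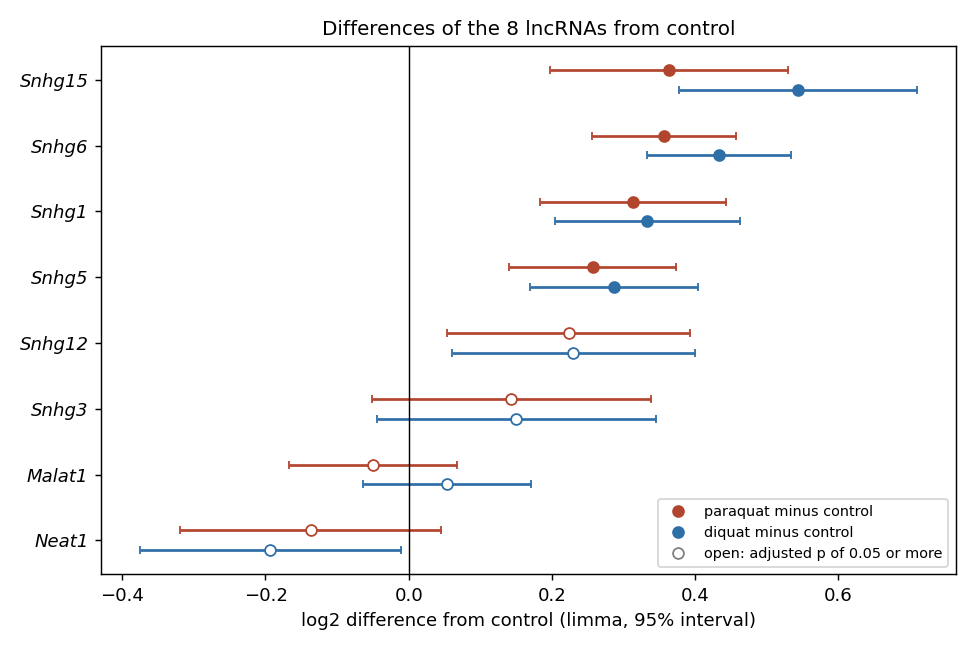
Log2 difference from control (x axis) of the 8 long noncoding RNAs for paraquat and for diquat, from the limma fit of 9 arrays, with 95% intervals; filled points passed an adjusted p of 0.05. Snhg15, Snhg6, Snhg1 and Snhg5 are filled for both compounds, and the intervals of Snhg3 and Malat1 cross 0.

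Neat1 was the 1 member below control with both compounds, and it did not pass. Its level was 9.63, 9.77 and 9.59 on the paraquat arrays, 9.45, 9.73 and 9.64 on the diquat arrays and 9.83, 9.67 and 9.90 on the control arrays. Control replicate 2 lay among the treated arrays, so the groups overlapped. The log2 difference was -0.19 with diquat (95% interval -0.38 to -0.01; adjusted p = 0.207 in limma) and -0.14 with paraquat (-0.32 to 0.05; adjusted p = 0.527 in limma). Neither passed in any of the 15 alternative fits of each comparison. Without control replicate 3 the paraquat difference was -0.09, and without diquat replicate 1 the diquat difference was -0.12.

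Malat1 had 2 features, and they disagreed. The brighter stood at 11.50, 11.67 and 11.55 on the paraquat arrays, 11.59, 11.72 and 11.72 on the diquat arrays and 11.63, 11.59 and 11.65 on the control arrays. Its log2 differences were -0.05 with paraquat (95% interval -0.17 to 0.07; adjusted p = 0.785 in limma) and 0.05 with diquat (-0.06 to 0.17; adjusted p = 0.607 in limma). The groups overlapped.

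The dimmer feature of Malat1 stood at 8.58, 8.43 and 8.28 on the paraquat arrays, 7.86, 8.10 and 8.72 on the diquat arrays and 7.90, 7.56 and 7.67 on the control arrays. Here the paraquat arrays were all above the controls, while diquat replicate 1 fell below control replicate 1. In a fit of all 34472 features, its log2 difference was 0.72 ± 0.19 with paraquat (SE; adjusted p = 0.0952 in limma) and 0.52 ± 0.19 with diquat (adjusted p = 0.195 in limma), and neither passed. In that fit, which the Gas5 feature shares, 2.94% of features were called with paraquat and 4.25% with diquat. The sources used here do not say which stretch of the transcript each feature reads, so no single direction is given for Malat1.

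The feature of Gas5, a host of box C/D snoRNAs first described in growth-arrested cells, is annotated to Gas5 and Mir5117. The RefSeq table of GRCm38.p6 lists Mir5117 as a synonym of Gas5. The feature stood at 7.13, 7.31 and 7.08 on the paraquat arrays, 7.06, 7.18 and 7.52 on the diquat arrays and 6.88, 6.69 and 6.94 on the control arrays. All 6 treated arrays were above the 3 controls. Its log2 difference was 0.42 ± 0.12 with diquat (SE; adjusted p = 0.0872 in limma, all features) and 0.34 ± 0.12 with paraquat (adjusted p = 0.228 in limma), and neither passed.

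**Figure D3:**
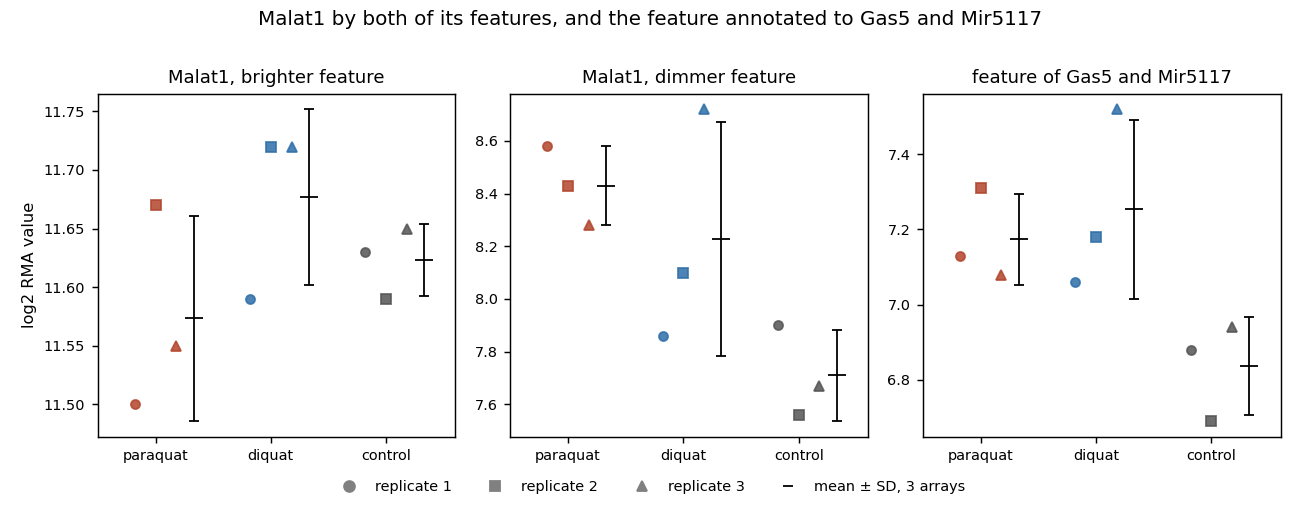
Log2 RMA value (y axis, own range in each panel) on each array for the brighter and dimmer Malat1 features and for the feature annotated to Gas5 and Mir5117; symbols are replicates and bars are the mean ± SD of 3 arrays. The brighter Malat1 feature overlaps between groups, and the paraquat arrays of the dimmer one lie between 8.28 and 8.58, above the controls.

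Between the compounds, 0 of the 8 members passed (paraquat minus diquat), and 0 of the 22180 genes did in limma (0%), while 2371 genes (10.7%) and, of the members, Snhg15 alone had an unadjusted p under 0.05. Snhg15 was lower with paraquat by 0.18 on the log2 scale (95% interval of paraquat minus diquat -0.35 to -0.01; adjusted p = 0.455 in limma). For Snhg6 the difference was -0.08 (-0.18 to 0.02; adjusted p = 0.55 in limma), and every paraquat array lay below every diquat array, as in 5.18% of all genes. Snhg1 and Snhg5 differed by -0.02 (-0.15 to 0.11) and -0.03 (-0.15 to 0.09). The fit therefore leaves room for a difference of up to 0.15 on the log2 scale in either of these genes at these doses. In each of the 4 genes the mean level was lowest in control, higher with paraquat and highest with diquat, but for Snhg1 and Snhg5 the order of the treated groups turned after quantile normalization (paraquat minus diquat 0.0161 and 0.0028) and without paraquat replicate 1 (0.0433 and 0.0167).

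Of 27 snoRNAs that lie within a member's RefSeq span, 9 had a feature of their own. All 9 had a positive log2 difference with both compounds, with a median of 0.19 for paraquat and 0.45 for diquat, against -0.00 and -0.02 over all genes. With diquat 3 passed: Snora73b, Snora73a and Snord22. With paraquat 0 of the 9 passed in limma. Of all genes, 4.13% were called higher with diquat and 2.33% with paraquat. RNA was purified on RNeasy columns, which retain RNA as short as a snoRNA poorly.

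Snora73b, an H/ACA snoRNA, stood at 9.39, 9.19 and 9.17 on the paraquat arrays, 9.53, 9.45 and 9.56 on the diquat arrays and 8.98, 9.28 and 8.92 on the control arrays. With diquat its log2 difference was 0.45 ± 0.09 (SE; adjusted p = 0.0156 in limma), although its host Snhg3 did not pass. The call was lost without control replicate 1 or 3 (adjusted p = 0.0673 and 0.0596 in limma) and without diquat replicate 1 or 3 (0.056 and 0.0504). Snora73a, a close copy in the same host whose probes may read both, gave 0.38 ± 0.10 (SE; adjusted p = 0.0462 in limma), a call that was lost in 9 of 15 alternatives. These included each fit without control replicate 1 or 3 (adjusted p = 0.158 and 0.15) and without diquat replicate 1, 2 or 3 (0.0992, 0.0956 and 0.0848).

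Snord22 lies in Snhg1 and rose with it under diquat. It stood at 8.02, 8.0 and 8.08 on the paraquat arrays, 8.13, 8.13 and 8.46 on the diquat arrays and 7.96, 7.79 and 7.84 on the control arrays, and all treated arrays were above the controls. The log2 difference with diquat was 0.38 ± 0.08 (SE; adjusted p = 0.0246 in limma), lost without control replicate 2 or 3 (0.106 and 0.0837) and with the 6 arrays alone (0.0869).

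Other snoRNAs had large but scattered differences. Snord87, inside Snhg6, stood at 8.16, 7.99 and 7.98 on the paraquat arrays, 7.64, 8.76 and 8.80 on the diquat arrays and 6.96, 7.81 and 7.67 on the control arrays. Its log2 difference of 0.92 with diquat was the largest of the 9 and did not pass (adjusted p = 0.103 in limma). With paraquat the difference was 0.56 (adjusted p = 0.439 in limma). The gene was chosen after its values were seen. Snord47, inside Gas5, and Snord99, inside Snhg12, had log2 differences of 0.64 and 0.74 with paraquat and 0.74 and 0.58 with diquat (adjusted p between 0.182 and 0.348 in limma). In all 3, control replicate 1 was the lowest control array and diquat replicate 1 the lowest diquat array, with Snord99 at 6.72 on that control array and at 7.63 and 7.71 on the other two. Without control replicate 1 the differences of Snord87 and Snord99 were 0.30 and 0.43 with paraquat, and that of Snord99 was 0.27 with diquat. Without diquat replicate 1, Snord87 and Snord47 passed with diquat, at 1.30 and 1.14 (adjusted p = 0.0108 and 0.0122 in limma), and Snord99 stood at 0.89. Without diquat replicate 3 the diquat differences of Snord47 and Snord99 were 0.46 and 0.39.

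**Figure D4:**
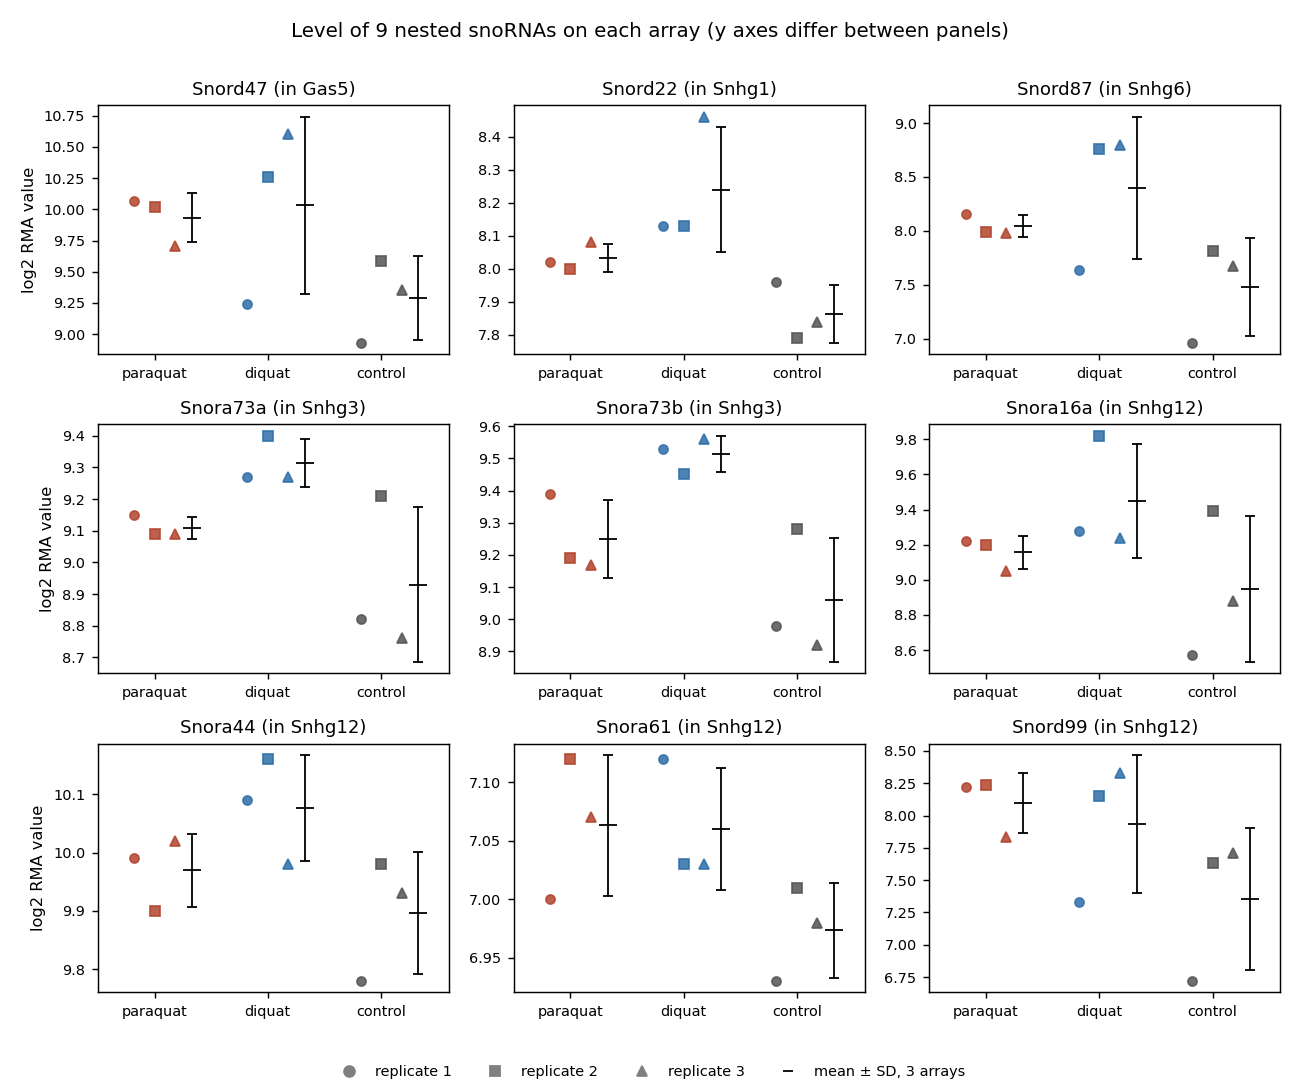
Log2 RMA value (y axis, own range in each panel) of the 9 snoRNAs with a feature of their own on each array, with the host gene in parentheses; symbols are replicates and bars are the mean ± SD of 3 arrays. Snord47, Snord87 and Snord99 have replicate 1 lowest among both the diquat and the control arrays, and Snora73b and Snord22 have all diquat arrays above the controls.

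Another list, of 14 measured long noncoding RNAs, held other snoRNA host or Snhg-named genes and, in addition, Tug1 and Oip5os1, which are not known as snoRNA hosts. Of the 14, Snhg17 and Zfas1 rose with both compounds and none fell, where 2.33% of all genes rose with paraquat and 4.13% with diquat. Snhg17 stood at 9.17, 9.13 and 9.07 on the paraquat arrays, 9.00, 9.05 and 9.18 on the diquat arrays and 8.60, 8.66 and 8.72 on the control arrays. Its log2 difference was 0.46 ± 0.05 with paraquat and 0.42 ± 0.05 with diquat (SE; adjusted p = 0.000958 and 0.00134 in limma). Zfas1, which lies antisense to the start of a protein-coding gene and hosts Snord12-type snoRNAs, stood at 9.74, 9.75 and 9.65 on the paraquat arrays, 9.74, 9.93 and 9.78 on the diquat arrays and 9.34, 9.26 and 9.37 on the control arrays. It was higher by 0.39 ± 0.06 with paraquat and by 0.49 ± 0.06 with diquat (SE; adjusted p = 0.00317 and 0.000587 in limma). All 4 of these calls held in the 15 alternative fits of each comparison. The size for Zfas1 depended on the feature. By the mean of its features it was 0.60 with paraquat and 0.74 with diquat, larger than by the brightest feature given above. The other 12 genes did not pass, with log2 differences from -0.16 to 0.30, and the median of the list was 0.10 with paraquat and 0.13 with diquat.

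Proteins that build snoRNPs, the complexes of snoRNAs with protein, formed the next list. Of 17 measured, 0 passed with paraquat, where Nop58, a core box C/D protein, was highest at 0.17 (adjusted p = 0.163 in limma), and 2 rose with diquat. These were Shq1, an assembly factor of H/ACA particles, by 0.39 ± 0.08, and Znhit6, an assembly factor of box C/D particles, by 0.22 ± 0.05 on the log2 scale (SE; adjusted p = 0.0202 and 0.0294 in limma). The Shq1 call was lost without control replicate 2 or 3 (0.0874 and 0.0691). The Znhit6 call was lost without control replicate 1 or 2 (0.0979 and 0.11) and without diquat replicate 1 or 2 (0.0964 and 0.0505). The median was 0.09 with paraquat and 0.11 with diquat, beside -0.00 and -0.02 over all genes. Of all genes, 2.33% were called higher with paraquat and 4.13% with diquat.

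Protein-coding 5′TOP mRNAs of the translation machinery, some of which host snoRNAs too, had small differences that were mostly positive. Of 31 measured, 0 passed with paraquat, where the ribosomal protein genes Rpl3 and Rpl30 were highest at 0.19 and 0.17 (adjusted p = 0.086 and 0.523 in limma). The Rpl30 feature was dim, at 5.46 in controls, near the 25th percentile of gene means (5.42). Rpl3 passed with an intensity trend and a robust prior (adjusted p = 0.0441 in limma) and was at 0.04 by the mean of its features. With diquat 1 passed, the nucleolar chaperone Npm1 at 0.16 ± 0.04 on the log2 scale (SE; adjusted p = 0.0327 in limma), a call lost without any 1 of control replicates 1 to 3 or diquat replicates 1 or 3 (adjusted p between 0.0629 and 0.132). The median log2 difference was 0.07 with paraquat and 0.08 with diquat, with a range over both of -0.04 to 0.19, below each of the 4 called host genes. Of the 31, 27 were positive with paraquat and 28 with diquat, against 48.1% and 41.7% of all genes. The list is bright, with a median level of 10.97 against 6.42 over all genes, and genes of like level were not compared. After quantile normalization Npm1 was at 0.12 with diquat, and the list as a whole was not examined there. All treated arrays lay above all control arrays in 11 with paraquat and 10 with diquat, against 9.05% and 10.1% of all genes. The calls as higher covered 2.33% of all genes with paraquat and 4.13% with diquat.

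Of 16 nonsense-mediated decay factors, 1 rose with paraquat and 5 with diquat, and none fell. Over all genes 2.33% were called higher with paraquat and 4.13% with diquat. Smg9, a partner of the SMG1 kinase that marks UPF1, rose with both compounds, by 0.28 ± 0.05 with paraquat and by 0.23 ± 0.05 with diquat (SE; adjusted p = 0.0107 and 0.0225 in limma). The paraquat call was lost without control replicate 2 (0.0533), and the diquat call without control replicate 2 or 3 or diquat replicate 3 (0.0905, 0.0833 and 0.0634). Smg8, the helicase gene Dhx34 and the decapping factor gene Dcp1a rose by 0.22, 0.21 and 0.22 on the log2 scale with diquat (adjusted p = 0.0117, 0.0133 and 0.0295 in limma). The fifth was Smg1, the kinase gene itself, at 0.19 (adjusted p = 0.0461 in limma), named here after its value was seen, and its call was lost without any 1 array but control replicate 2 (0.0572 to 0.127). The other calls were lost without control replicate 1 for Smg8 (0.0545), without control replicate 2 for Dhx34 (0.0631), and without any 1 control or diquat replicate 3 for Dcp1a (0.0596 to 0.106). The median of the list was 0.03 with paraquat and 0.12 with diquat, beside -0.00 and -0.02 over all genes.

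Proteins of the bodies that hold Neat1 and Malat1 showed no common direction. Of 21 paraspeckle proteins, 0 passed with paraquat and 1, Pspc1, rose with diquat by 0.19 ± 0.05 on the log2 scale (SE; adjusted p = 0.0485 in limma), a call lost in 9 of 15 alternatives. Those included the fits without any 1 control replicate (0.153, 0.172 and 0.0558) and without diquat replicate 2 or 3 (0.0594 and 0.0938). With paraquat Cirbp and Hnrnpr, which encode RNA-binding proteins, stood farthest from 0, at -0.23 and -0.17 (adjusted p = 0.111 and 0.228 in limma), and the list medians were -0.01 with paraquat and 0.03 with diquat. Of 27 nuclear speckle and SR splicing proteins, Srsf5 fell with paraquat by 0.18 ± 0.04 on the log2 scale (SE; adjusted p = 0.0258 in limma) and Srsf11 rose with diquat by 0.23 ± 0.06 (adjusted p = 0.0373 in limma). The Srsf5 call was lost when any 1 of the 6 arrays compared was left out (0.0594 to 0.107), and the Srsf11 call when any 1 but diquat replicate 2 was (0.0558 to 0.147). The medians of that list were -0.02 with paraquat and 0.05 with diquat. Of 22 other named noncoding RNAs, 0 passed with paraquat and Norad, a cytoplasmic RNA that binds Pumilio proteins, rose with diquat by 0.20 ± 0.05 (SE; adjusted p = 0.0317 in limma). That call was lost without any 1 control array (0.108, 0.119 and 0.0594) and without diquat replicate 1 or 3 (0.104 and 0.0804). Rpph1, the RNA of ribonuclease P, and Firre, a nuclear RNA, stood at 0.22 and -0.14 with paraquat (adjusted p = 0.511 and 0.329 in limma). The medians of these 22 genes were -0.01 with paraquat and -0.03 with diquat, beside -0.00 and -0.02 over all genes. Beside the calls in these lists, 4.57% of all genes were called with paraquat and 7.02% with diquat.

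**Figure D5:**
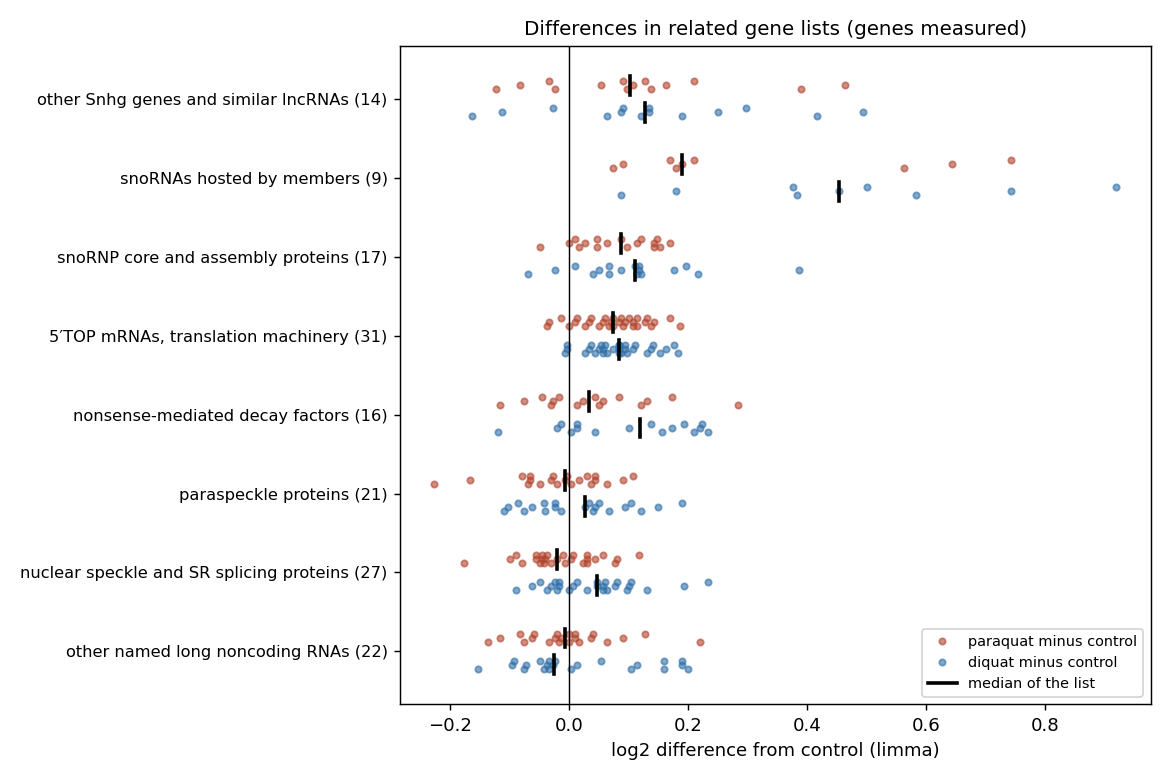
Log2 difference from control (x axis) of each measured gene in 8 related lists, for paraquat and diquat, with the number of genes measured in parentheses; vertical bars are list medians. The snoRNAs within members have medians of 0.19 and 0.45, and the paraspeckle, nuclear speckle and other long noncoding RNA lists lie around 0.

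For the 3 members that differed from control by at least 0.3 on the log2 scale, the genes with the most similar profile were found by the root-mean-square difference over the 9 arrays, each gene taken as its log2 deviation from its own control mean. For Snhg6 they were Cars (0.0393), which encodes cysteinyl-tRNA synthetase, Frmd4a (0.0396) and Tinagl1 (0.0478). For Snhg1 they were Xpot (0.0473), the exporter of tRNA from the nucleus, Hmga2 (0.0536) and Twistnb (0.0575), an RNA polymerase I subunit gene. For Snhg15 they were F3 (0.0734), which encodes tissue factor, Tnfrsf23 (0.0859) and Lipg (0.0869). The log2 differences from control of the 9 genes were 0.29 to 0.44 for paraquat and 0.30 to 0.49 for diquat. These sizes follow from the choice of the genes by their likeness, over the same arrays, to members that had changed, so they are a description.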

How the data were processed

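Expression was measured in TAMH cells on 9 Affymetrix Mouse Gene 2.1 ST arrays. The authors deposited log2 values made, per the submitters' processing notes, with Affymetrix Expression Console 1.1 and RMA, which corrects background, normalizes by quantiles and summarizes probes. The sources used here give neither its settings nor the genome build behind the annotation. The table held 34472 features with values from 3.89 to 13.19. Features with 1 gene symbol in the platform annotation (23521) gave 22180 genes, by the brightest feature where a gene had several. Depth does not apply to arrays, and their number limits the precision. The labels name 3 dishes per treatment without saying whether they were independent cultures. The p-values therefore rest on differences among these arrays, and those may be technical.

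The values were fitted as deposited in limma 3.58.1 (R 4.3.3; lmFit and eBayes), 1 mean per group over all 9 arrays, with adjusted p-values by Benjamini-Hochberg over all genes and a threshold of 0.05. Errors are limma's standard errors. The fit was tested on simulated data. Alternatives were array weights, all features, the mean of features, quantile normalization, centring, the removal of dim genes, a robust prior with an intensity trend, the replicate block, the 6 arrays compared alone and the loss of each array. Replicate numbers come from the sample titles. The sample descriptions give number 1 for replicates 2 and 3 of both treated groups. The members and lists were chosen with earlier results of these data known. Named genes were all members, up to 4 genes past the threshold with the largest change per list and comparison, or the top 2 if none passed, and the 3 most similar genes per member. The Gas5 feature and the dimmer Malat1 feature were taken from a fit of all features.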

Additional observations from a re-analysis of the deposited data

How the results depend on the processing

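With diquat, 4 members were called in 12 of 15 alternatives and 3 to 5 over the fits without 1 array, with 5 under array weights. With paraquat 3 were called with the 6 arrays alone and 1 to 4 over the fits without 1 array, which hold fewer arrays, and 4 in the other alternatives. Same-numbered arrays deviated from their group means with correlations of -0.192 to 0.198. Each paraquat array correlated best with the control of its own number (0.157, 0.134 and 0.0893), and the comparisons with diquat did not show that pattern. These values do not settle whether the numbers pair the arrays. The replicate block left 4 member calls with either compound, 930 gene calls with paraquat and 1416 with diquat. Under it the named calls of Srsf5 with paraquat (adjusted p = 0.0538) and of Smg1 (0.0644), Dcp1a (0.0513), Npm1 (0.056), Srsf11 (0.0674) and Krt19 (0.0562) with diquat were lost in limma, which left 3 of the 5 decay factors. Between the compounds 0 members passed in limma as reported and in the 15 alternatives. Over all genes, the calls for diquat numbered 802 to 1908 without 1 array and 959 with the 6 arrays alone, against 1558. For paraquat they numbered 574 to 871 without 1 array and 1623 with array weights, against 1014. Between the compounds they numbered 0 to 3 without 1 array, 4 with dim genes removed or after quantile normalization and 1 after centring.

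Malat1 changed sign with paraquat to 0.34 under the mean of features and 0.72 by its dimmer feature (chosen after seeing the data), and between the compounds to 0.05 and 0.20. The other sign changes were all in paraquat minus diquat, where none passed. After quantile normalization Snhg1 was 0.0161, Snhg3 0.0081 and Snhg5 0.0028. Snhg3 was 0.0456 with array weights. Without 1 array the ranges were -0.0667 to 0.0433 for Snhg1, -0.0717 to 0.108 for Snhg3, -0.0733 to 0.0167 for Snhg5, -0.045 to 0.045 for Snhg12 and -0.0217 to 0.118 for Neat1. The cause of these shifts was not tested.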
